A study of Arabidopsis thaliana with 88 samples.

Results

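HISN6A (AT5G10330), HISN6B (AT1G71920) and FOLT1 (AT5G66380) are Arabidopsis thaliana genes that belong to duplicated gene pairs. They were taken by their identifiers, as 3 of the 62018 loci of the Araport11 annotation, and each was followed in 3 cytosine contexts over gene body and promoter, which gives 18 measures. HISN6A and HISN6B encode histidinol-phosphate aminotransferase, an enzyme of histidine biosynthesis, and FOLT1 encodes a folate transporter. In plants, cytosines can be methylated in 3 sequence contexts, called CG, CHG and CHH (H stands for A, C or T). Methylation of a gene body in CG alone is common in expressed genes, whereas methylation in all contexts is typical of transposable elements and of silenced genes. Pairs in which different natural lines keep different copies in use are known for these genes. Crosses between Col-0, in which HISN6B is known to be silent, and Cvi-0, in which HISN6A is known to be missing, give some progeny without a working copy. FOLT1 is known to be silenced in some lines that carry a rearranged second copy.

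DNA methylation was measured by bisulfite sequencing of mature leaves from 32 natural accessions, which are inbred lines named here by their numbers; accession 6909 is Col-0 and accession 6911 is Cvi-0. All plants were untreated and grew on soil at 21 °C with 16 h of light and 8 h of darkness up to the stage of about 14 leaves, and leaves of 2 to 3 plants made a library. The 88 libraries were spread unevenly, with 1 library in 3 accessions, 2 in 13, 3 in 5 and 4 in 11, and libraries with the same replicate number came from plants grown in the same round. Values are methylation levels per region, deposited as fractions with neither counts nor coverage, so their depth is unknown and no counting interval can be given. Regions with a CHH level of exactly 100%, nearly all of which read 100% in CG and CHG too, were taken as regions without data, a reading that rests on the values. The share of the promoters of the 26927 protein-coding genes without data ran from 1.16% to 14.9% over the libraries with a median of 5.25%, and it was highest in replicate 1 of accession 5779.

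On TAIR10, HISN6A lies on the minus strand of chromosome 5 from 3247847 to 3250964, and HISN6B on the plus strand of chromosome 1 from 27066948 to 27069166. FOLT1 lies on the minus strand of chromosome 5 from 26513262 to 26515800. A promoter was a window of 400 bp centred on the start of the gene. HISN6A and HISN6B are close copies of each other, and how reads that match both were placed is not given in the sources used here, so that a shift of reads between them was not tested.

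The accession term was the question of whether accessions differed beyond the spread between their replicates. It was called in 10 of the 18 measures at an adjusted p under 0.05 (F-test with variances moderated by limma, Benjamini-Hochberg over all loci of a table). These were all 6 measures of HISN6B, gene-body CG, promoter CG and promoter CHG of HISN6A, and gene-body CG of FOLT1. The loci of a table are genes and transposable element fragments, with 30827 gene identifiers among the 62018 loci. Shares over all loci are therefore not shares of genes, and gene body and promoter there mean the body and start window of any locus. Over all loci tested, the same term was called for 60.4% of gene bodies in CG, for 21% in CHG and for 14.8% in CHH. The shares for promoters were 27.8%, 16.1% and 11.3%. A call in gene-body CG was thus the common outcome, as it was for all 3 genes, while the calls of HISN6B in CHG and CHH were shared by a minority of loci.

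HISN6B was the gene with the widest spread between accessions. Its gene-body CG level ran over accession means from 0% to 100% with a median of 28.5% and an SD of 35.5 percentage points over 31 accessions. That SD was exceeded by 190 of 26283 protein-coding genes. The means of 100% were those of 5486, which had 1 library, and of 1741, which had 1 value that is doubtful for a reason given further on. In gene-body CHG the accession means ran from 0% to 73.3%, and the SD of 27.6 percentage points was exceeded by 11 of 26211 genes. The promoter spread as widely, from 0% to 100% in CG and from 0% to 72.2% in CHG, with SDs exceeded by 132 of 25774 and 22 of 25418 genes. The promoter CG means of 1741, 5856, 9057 and 9512 rest on values of 100% that are doubtful for the same reason. That of 6024 averages 0% and 100%, the latter in a library whose promoter CHG also read 100%. Differences between accessions made up 82.9% of the variance over libraries in gene-body CG, 92.2% in gene-body CHG and 95.2% in promoter CHG. The accession term had an adjusted p of 1.41e-10, 1.8e-17 and 3.8e-21 in these measures (limma-moderated F-test). A share of this kind is well above 0% even without an accession effect, since each accession holds few libraries. It was 35.5% in gene-body CHG of HISN6A, which was not called (adjusted p = 0.774, limma).

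In Col-0, the reference line 6909, HISN6B was methylated in all contexts. The gene-body CG level was 90%, 78.6%, 91.1% and 94.9% in replicates 1 to 4, which is 88.6% ± 7.03 (SD, n = 4). The gene-body CHG level of the same libraries was 42.1%, 56.0%, 63.8% and 87.5%. All 4 libraries were high in both contexts, with a wider spread in CHG. Gene-body CHH stood at 4.76%, 6.06%, 11.3% and 12.6%. The promoter was at 87.2% ± 10.9 in CG, 72.2% ± 9.93 in CHG and 13.1% ± 4.03 in CHH (SD, n = 4 in each).

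Accession 6909 was then set against the equally weighted mean of the other accessions. HISN6B was higher in 6909 in 5 of its 6 measures, and no measure of HISN6A or FOLT1 was called. Over all loci, transposable element fragments included, 6.91% of gene bodies were higher in 6909 in CG and 2.04% in CHG. Of the promoters of all loci, 3.03% were higher in CG, 3.05% in CHG and 1.45% in CHH. The gene-body difference of HISN6B was 50.9 ± 10.2 percentage points in CG (SE; adjusted p = 0.000172, limma-moderated contrast) and 47.7 ± 5.25 in CHG (adjusted p = 5.29e-10). In the promoter it was 57.8 ± 11.4 in CG (adjusted p = 0.000221, limma), 58.6 ± 4.09 in CHG (adjusted p = 5.81e-16) and 10.1 ± 1.37 in CHH (adjusted p = 5.41e-07). The promoter CHH call was lost with values as deposited, at 8.42 and an adjusted p of 0.773 (limma). Gene-body CHH missed the threshold, with a difference of 6.13 ± 1.74 and an adjusted p of 0.0587 (limma). It passed without replicate 2, with a difference of 7.88 and an adjusted p of 0.000795 (limma), and without the 3 accessions of 1 library, at 6.54 and 0.0329.

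Other accessions shared this state with 6909. Accession means of gene-body CHG reached 10% or more in 8 accessions, namely 5210, 5486, 5772, 5779, 6076, 6909, 6966 and 8366, and the next accession in order was 6911 at 6.25%. The same 8 accessions reached 10% in promoter CHG, and there too 6911 came next at 5.56%. With CHG values of exactly 100% kept, 13 accessions reached 10% in promoter CHG, adding 1741, 5856, 6024, 9057 and 9512. In accession 5210 gene-body CHG was 70%, 55.6%, 56% and 66.7% in its 4 libraries. In accession 8366 it was 50%, 71% and 70%, and the promoter CG level was 100% in all 3 libraries. In accession 6966 replicate 2 stood below the other libraries in gene-body CG, at 50% against 100%. Its gene-body CHG was 21.1% against 50% to 73.3%. Its promoter CG was 100%, however, and the longer locus described further on was at 87.5% CG in that library. That longer locus was lowest in replicate 4 of 6966, at 66.7%. Accession 5779 was the lowest of the 8 in CHG, at 16.7% and 63.6% in the gene body and 33.3% in both promoter values, and its replicate 3 held no gene-body data. The mean gene-body CHG of these accessions ran from 40.2% in 5779 to 73.3% in 5486, which had 1 library, and neighbours in that order did not differ beyond their spread. In the promoter, 8366 stood above 5779 and 5779 above 6911 beyond the spread of their libraries.

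**Figure D1:**
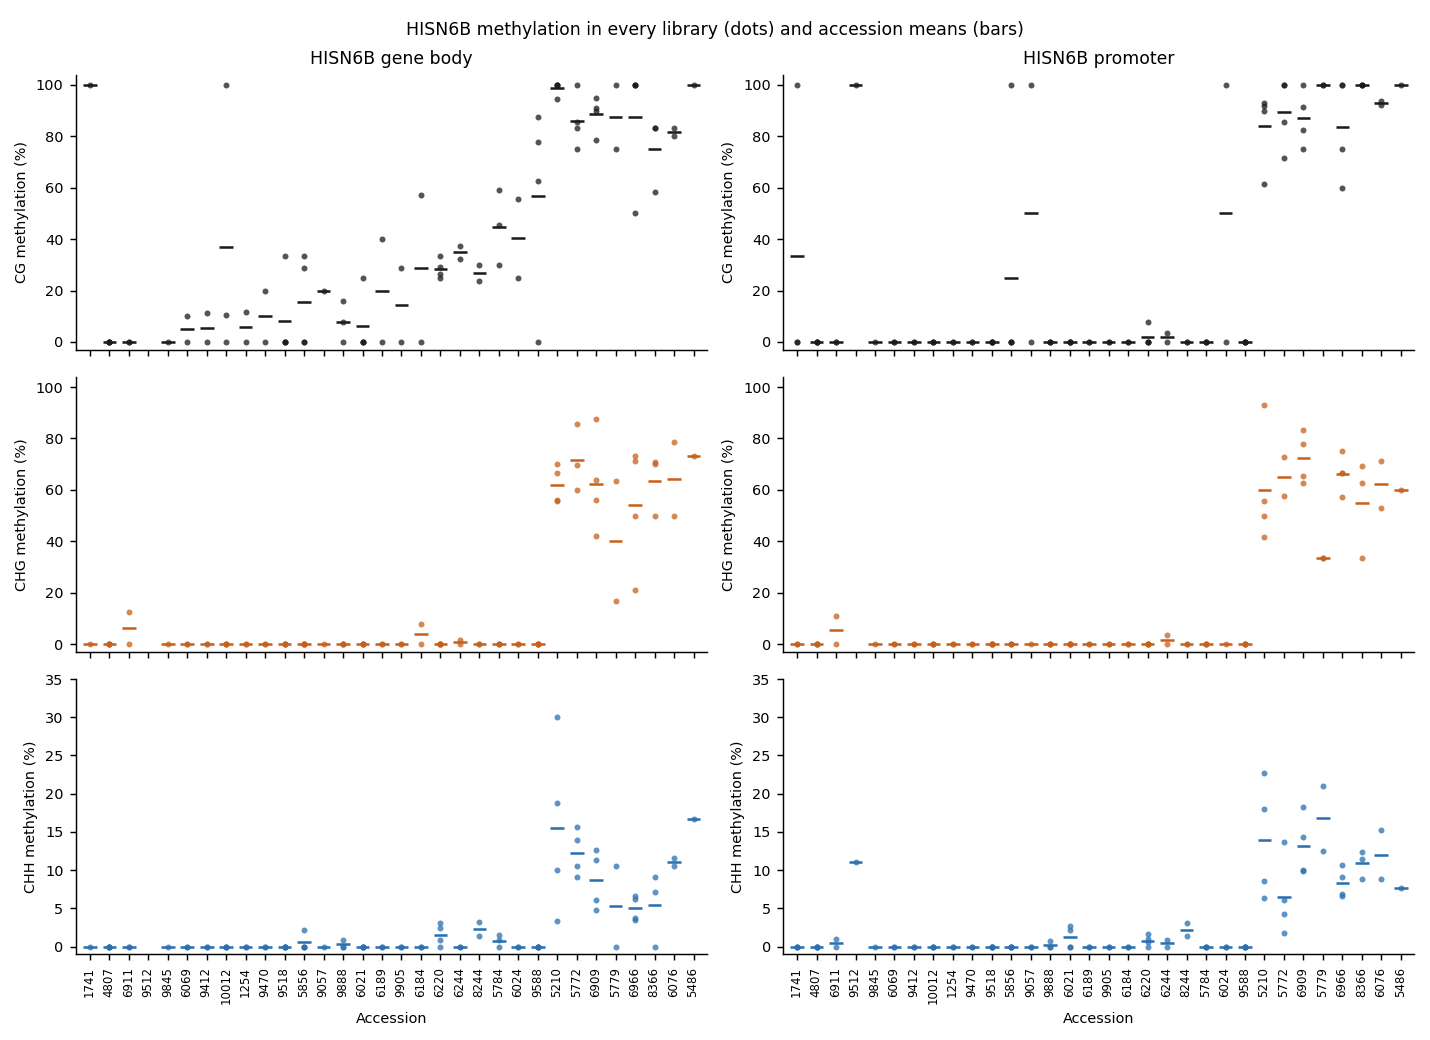
HISN6B methylation in percent for CG, CHG and CHH (rows) in gene body and promoter (columns). Each dot is a library and each bar the mean of an accession, and accessions are ordered by the CG level of the study's own locus over HISN6B; CHG is at 10% or more in the 8 accessions on the right, while gene-body CG alone is intermediate in several accessions to their left.

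A second pattern at HISN6B was CG methylation of the gene body without CHG. In accession 6220 gene-body CG was 29.2%, 25%, 26.3% and 33.3% and CHG was 0% in all 4 libraries. In accession 5784 it was 59.1%, 30% and 45.5% with CHG at 0% in all 3. In accession 9588 it was 87.5%, 0%, 77.8% and 62.5%, again with CHG at 0%, so its libraries disagreed widely. The promoter was at 0% CG in every library with a value of 5784 and 9588, and at 0%, 0%, 7.69% and 0% in 6220. Gene-body CG in these accessions therefore overlapped the range of the 8 accessions in part, while CHG and promoter CG did not.

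CG values of exactly 100% needed care, since a region without CG data may carry the same value. HISN6B had 11 gene-body and 16 promoter libraries at 100%, and HISN6A had 2 promoter libraries. The study's own annotation holds a longer protein-coding locus, CUFF_PC.5259, which starts 280 bp upstream of HISN6B, ends with it and contains both the gene body and the promoter window. In the library of the same value, that longer locus was at 0% CG for 2 of the 11 gene-body values (1741 replicate 2 and 10012 replicate 3) and for 4 of the 16 promoter values (1741 replicate 2, 5856 replicate 3, 9057 replicate 4 and 9512). Both HISN6A values (4807 replicate 3 and 6911 replicate 2) lay within a locus at 0% as well. A fully methylated region inside an unmethylated locus is not possible where both hold data, so these 8 values do not stand for a methylated region. For the other 21 values, all at HISN6B, the longer locus stood between 50% and 100%. It was at 50% for the promoter value of 6024 replicate 4. With CG of 100% left out where CHG read 100% too, HISN6B promoter CG reached 50% in 8 accessions, and 6024 was not among them.

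The longer locus CUFF_PC.5259 had CG data in all 88 libraries, and its accession means fell apart into a high and a low range. Its CG level was 50% or more in the same 8 accessions, from 70.6% in 5210 to 93.8% in 5486, and the highest of the other 24 was 31% in 9588. Single libraries overlapped, with 53.8% in 9588 replicate 1 and 53.3% in 5210 replicate 4. Its CHG level was between 30.2% and 60.5% in these 8 and at most 3.57% in the other 24, of which 21 were at 0%, and here the libraries did not overlap. In 6909 the CG level was 75%, 82.4%, 81.3% and 82.5% in replicates 1 to 4, and in 6911 it was 0% in both. CHH added accession 9512, whose only library stood at 15.3% in CHH with CG and CHG at 0%. These levels overlap those of HISN6B in sequence and are a second view of the same reads, not separate evidence.

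**Figure D2:**
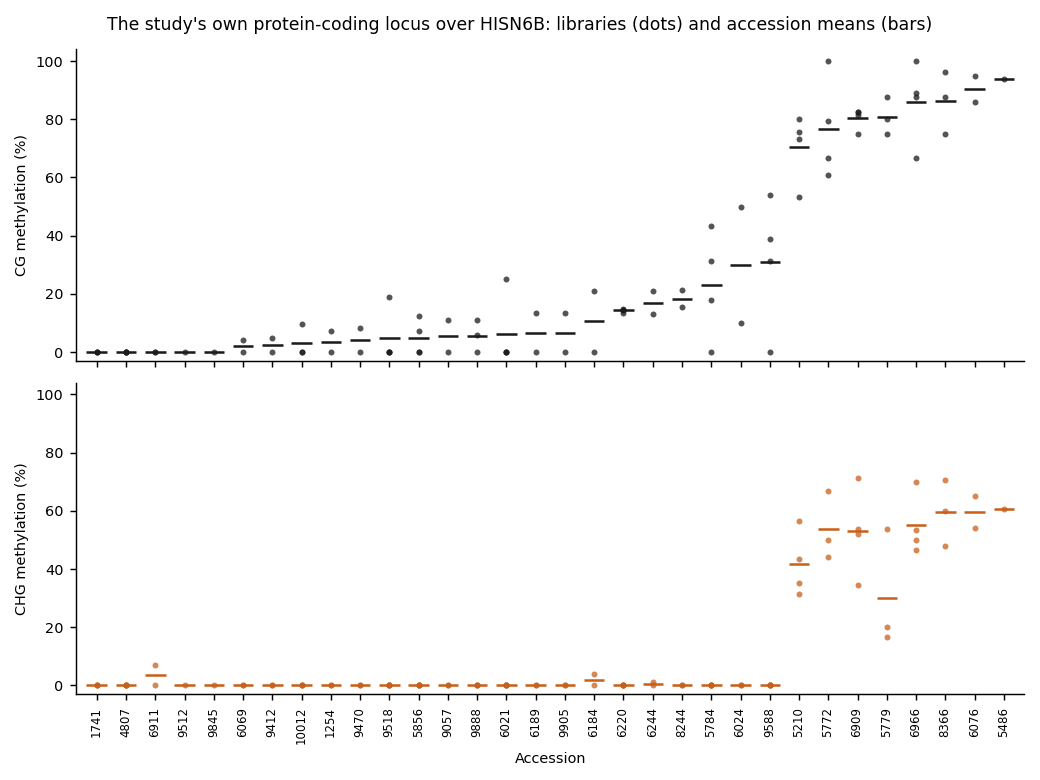
CG and CHG methylation in percent of the study's own protein-coding locus over HISN6B (CUFF_PC.5259), with a dot for each library and a bar for each accession mean. Accessions are ordered by their mean CG level, which steps from 31% in 9588 to 70.6% in 5210, and CHG is at most 3.57% to the left of that step.

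Upstream of the gene, the methylated accessions differed among themselves. The promoter window of CUFF_PC.5259 is centred 280 bp upstream of the HISN6B start. Its CG level was 97.4% ± 4.44 in 8366 (SD, n = 3), 77.5% ± 26.3 in 6966 (n = 4) and 75.3% ± 6.66 in 6076 (n = 2). It was 37.1% ± 14.4 in 5210, 29.4% ± 24.6 in 6909 and 14.6% ± 29.2 in 5772 (SD, n = 4 in each). In 5779 it was 18.2% ± 31.5 (SD, n = 3), and in 5486, which had 1 library, 33.3%. The libraries of 5772, 5779 and 6909 spread so widely that their order cannot be told. The spreads of 6966 and 5210 overlapped as well. The neighbouring genes within 5 kb were AT1G71900 and AT1G71910. AT1G71910, which is nearer, had accession means of at most 1.85% in gene-body CG, and AT1G71900 had a median of 23.3% in CG with at most 1.10% in CHG. No locus annotated as a transposable element lay within that distance.

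HISN6A was close to unmethylated in most accessions. Gene-body CG had a median of 0.935% over 31 accessions and was below 5% in 27 of them, and promoter CG was at 0% in 25 of 32. The median gene-body levels in CHG and CHH were 0% and 0.391%. In all 4 libraries of 6909 gene body and promoter were at 0% in CG and CHG. Gene-body CG reached 14.3% in the only library of 9512, and it was 38.5%, 3.74% and 7.45% in 5779, whose replicate 1 also gave 30.8% in CHG and was the library with most promoters lacking data.

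Accession 10012 was the exception. Its HISN6A promoter stood at 77.8%, 81.0% and 78.9% CG in replicates 1, 3 and 4, which is 79.2% ± 1.61 (SD, n = 3). Promoter CHG was 20%, 38.9% and 0%, so its libraries disagreed in that context, and promoter CHH was at most 4.17%. The gene body was at 27.9%, 34.6% and 26.5% CG, which is 29.7% ± 4.36 (SD, n = 3), with 1.79%, 13.8% and 0% CHG. No other accession had a promoter CG mean above 50%, and 6911 stood at 50% only through a value of 100% that lies within a locus at 0%. The accession term of promoter CG had an adjusted p of 0.000173 (limma-moderated F-test), which rose to 0.629 without 10012 and to 0.179 without replicate 4. That of promoter CHG had an adjusted p of 0.0384, which rose to 0.343 without 10012 and to 0.0523 with the growth round as a block (limma). Without any of replicates 1 to 3 it lost the call too, with adjusted p values from 0.282 to 0.999 (limma). Gene-body CG had an adjusted p of 2.09e-08 (limma) and was called in every alternative run.

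**Figure D3:**
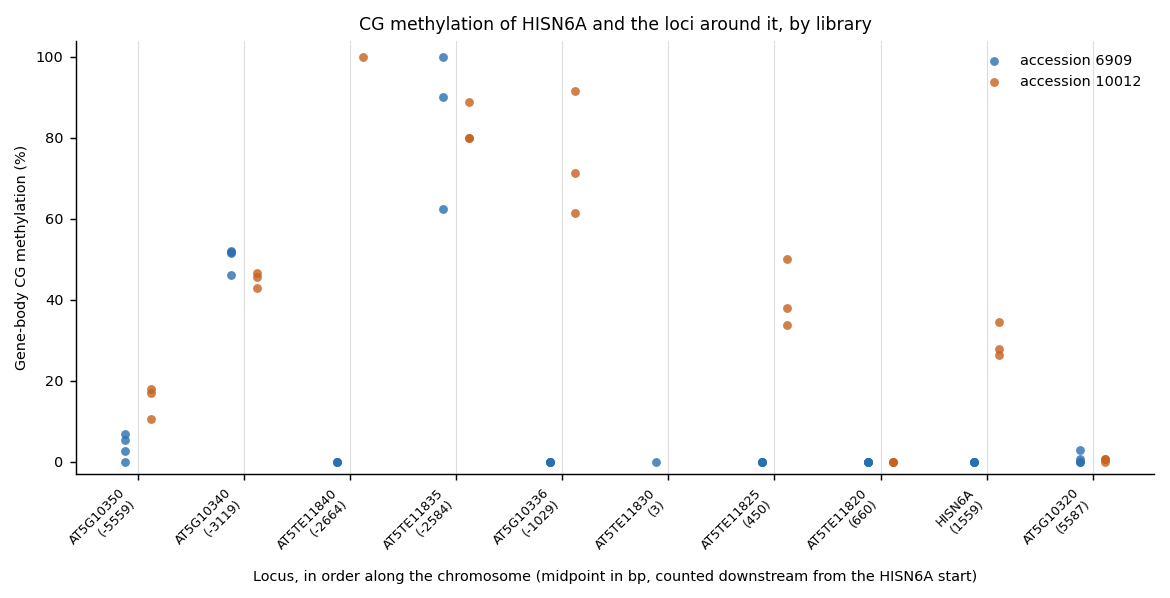
Gene-body CG methylation in percent of HISN6A and of each Araport11 locus within 5 kb, in order along the chromosome, with a dot for each library of accession 6909 (blue) and of accession 10012 (orange). AT5G10336, AT5TE11825 and HISN6A are at 0% in 6909 and methylated in all libraries of 10012, while AT5G10320 is low in both and AT5G10340 is methylated in both.

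The high level in 10012 reached beyond the gene at AT5G10336. The other loci that set 10012 apart lay inside HISN6A or spanned it. AT5G10336, a short protein-coding locus upstream of HISN6A, was at 61.5%, 71.4% and 91.7% gene-body CG in 10012 and at 0% in 6909, with 50% as the highest other accession mean. Its CHG level in 10012 was 19.0%, 41.7% and 45.5%. AT5TE11825, a transposable element fragment of 391 bp inside HISN6A near its start, had a mean of 40.6% CG in 10012 and at most 11.1% elsewhere, while AT5TE11820, a fragment of 26 bp also inside HISN6A, was at 0% in all 3 libraries of 10012. The study's noncoding locus CUFF_NC.9251 spans HISN6A, its promoter window and AT5G10336 on the opposite strand. Its level is thus in part a second view of the same reads, not separate evidence. It stood at 47.7%, 48.9% and 43.8% CG in the 3 libraries of 10012, and the highest other accession mean was 8.15%. Downstream of HISN6A, AT5G10320 was at most 4.25% in any accession, with 0.533% in 10012. Upstream, AT5G10340 was methylated in many accessions, with a median of 35.3%, so it did not set 10012 apart.

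In 6911, which is Cvi-0, the HISN6A gene body held no data in both libraries, and these were the only libraries of the 88 without data there. The fragments AT5TE11820 and AT5TE11825 and the locus AT5G10336, which held data in 79, 78 and 70 libraries, also held none in 6911. AT5G10320 and AT5G10340 on either side did, with 1.68% and 16.1% CG. HISN6A is known to be missing in this line, and whether its absence accounts for the gap was not tested. The promoter window of HISN6A did hold values in 6911, at 0% and 100% CG.

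Accession 6911 was also set against the other accessions, in the 15 measures in which it had a value. It was lower in gene-body CG of HISN6B and of FOLT1 and higher in promoter CG of HISN6A. Over all loci, transposable element fragments included, 21.4% of gene bodies were lower in 6911 in CG, and 3.41% of promoters were higher. HISN6B gene-body CG was 0% in both libraries of 6911 against 40.7% in the mean of the others, a difference of -40.7 ± 14.2 percentage points (SE; adjusted p = 0.0276, limma). That call was lost with the growth round as a block (adjusted p = 0.0515, limma) and without replicate 1, 2 or 4 (0.206, 0.199 and 0.0572). The HISN6A promoter difference of 45.8 ± 10.7 (adjusted p = 0.00202, limma) rests on the value of 100% in replicate 2 of 6911 and turned to -5.16 without replicate 2. HISN6B promoter CG differed by -32.2 ± 15.9 (adjusted p = 0.368, limma) and was called when CG values of 100% were left out, at -15.2 and 0.00272. The difference of FOLT1 kept its call in every alternative run and is given further on.

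HISN6A and HISN6B were then compared within accessions, as copies in the same genome. HISN6A was less methylated than HISN6B in gene-body CG, with means of 2.90% ± 6.05 and 40.7% ± 35.4 (SD, n = 30 accessions). HISN6A was lower in 28 accessions and equal in 2, and the difference of -37.8 ± 34.6 percentage points had an adjusted p of 6e-05 (two-sided sign-flip permutation test over accessions, 6 tests). This came from the smallest p that 100000 resamples can give, 1e-05. The 28 include 1741 and 10012, whose HISN6B values hold a doubtful 100%. With the values of 100% within loci at 0% left out, HISN6A was lower in 26 of 29 accessions, equal in 2 and higher in 10012, and the difference was -34.6 ± 34.6 (adjusted p = 0.00012, permutation test). In gene-body CHG the difference was -15.5 ± 27.5 (adjusted p = 0.00834), with HISN6A lower in 10 accessions, equal in 12 and higher in 8. In the promoter the differences were -25.6 ± 48.7 in CG (n = 32), -14.3 ± 27.7 in CHG (n = 31) and -2.88 ± 5.41 in CHH (n = 32), each with an adjusted p of 0.00834 by the same permutation test. Gene-body CHH differed by -2.31 ± 4.96 (adjusted p = 0.0132, permutation test), although HISN6A was the higher copy in 17 of 30 accessions, so that the mean and the count point in opposite directions.

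The mean differences in CHG and CHH came from few accessions. HISN6A promoter CG was 0% in each of the 8 accessions with high HISN6B CHG, and HISN6A gene-body CG in them was between 0% and 16.5%. In 10012 the order was the reverse, with 79.2% at the HISN6A promoter and 0% in all 3 libraries at the HISN6B promoter. No accession was at 50% CG or more in both promoters. However, HISN6A promoter CG was at 0% in 25 of 32 accessions. It reached 50% only in 10012 and, through a doubtful value, in 6911, so the lack of overlap says little about the pair. The promoter CG difference lost its call when every CG value of 100% was left out, at -11.2 and an adjusted p of 0.165 (permutation test), and kept it when only the values within loci at 0% were left out, at -22.4 and 0.0119. Gene-body CHH lost its call without replicate 2, at -1.44 and 0.0712. Within growth rounds 1 to 4 the gene-body CG difference was -40.5, -50.8, -35.8 and -32.7 percentage points, and the promoter CG difference was -18.7, -40.6, -20.4 and -19.4.

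**Figure D4:**
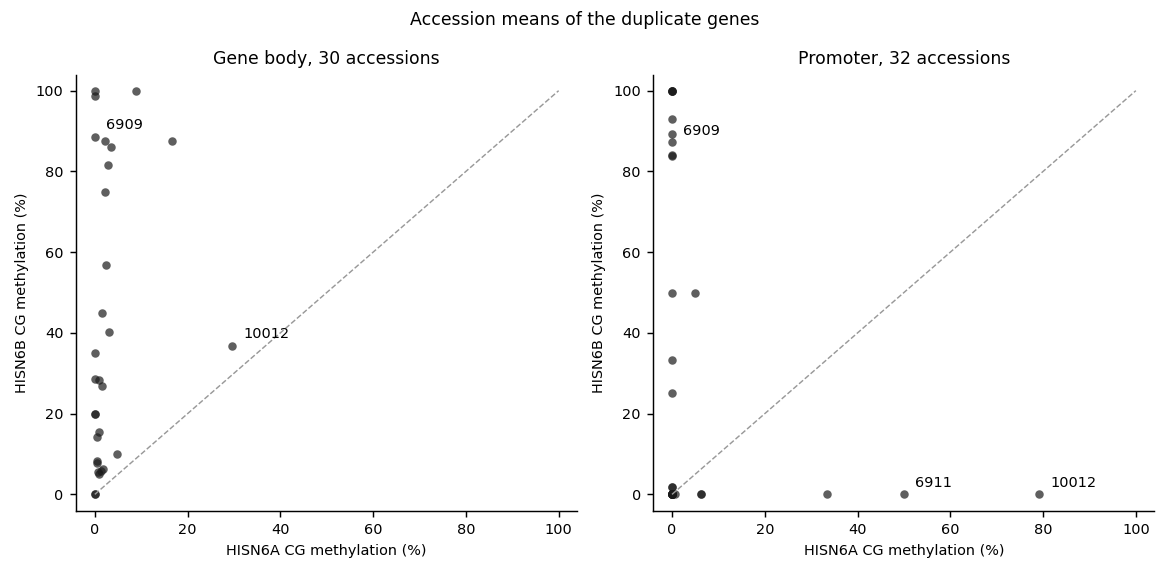
Accession means of CG methylation in percent at HISN6A (x axis) against HISN6B (y axis) for the gene body (30 accessions) and the promoter (32 accessions), with the diagonal of equal levels dashed. Accession 6909 lies high on the HISN6B axis with HISN6A at 0%, accession 10012 lies at 79.2% on the HISN6A axis with HISN6B at 0% in the promoter, and 6911 stands at 50% through 1 doubtful library.

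FOLT1 showed CG methylation of the gene body at moderate levels and little else. Gene-body CG had a median of 16.0% over the 32 accessions, from 0.948% in 6911 to 27.8% in 5772, and every library held data. Its SD of 6.24 percentage points over accessions was near the median of all protein-coding genes, 5.93. CHG was at most 0.975% and CHH at most 1.26% in any accession mean. The promoter was at most 2.5% in CG, 2.08% in CHG and 4.55% in CHH, the last in 9845, which had 1 library. No accession reached 50% in CG, 10% in CHG or 5% in CHH, so a state like that of HISN6B in 6909 was not seen at FOLT1 in these accessions.

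Gene-body CG of FOLT1 still differed between accessions, with 75.3% of its variance lying between them and an adjusted p of 5.19e-08 (limma-moderated F-test). The libraries of 5772 stood at 31.8%, 28.3%, 26.8% and 24.3%, and those of 6909 at 16.4%, 20.5%, 22% and 13.2%. Both libraries of 6911 were near 0, at 0.971% and 0.926%. In order of level, 9845, 1741 and 8244 came after 6911, at 3.08% (1 library), 4.47% ± 2.45 (SD, n = 3) and 4.78% ± 0.68 (n = 2). Most neighbours in that order did not differ beyond their spread. The exceptions were 1741 above 6911, 9888 above 8244 and 9905 above 6076. FOLT1 was 14.2 ± 3.13 percentage points lower in 6911 than in the mean of the others (SE; adjusted p = 0.000292, limma), and leaving out replicates moved this difference only between -14.7 and -14.1.

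The methylated part of FOLT1 was not its start. The study's antisense noncoding locus CUFF_NC.11382 covers 1192 bp at the start of FOLT1, and its CG level had a median of 0.465% over accessions, with a maximum of 8.47% in 5772. The window of 400 bp around the antisense start, which lies inside FOLT1, had a median CG level of 21.1% with a wide spread between libraries, such as 42.4% ± 38.4 in 6909 (SD, n = 4). The study's own protein-coding locus has the coordinates of FOLT1 and repeated its values.

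**Figure D5:**
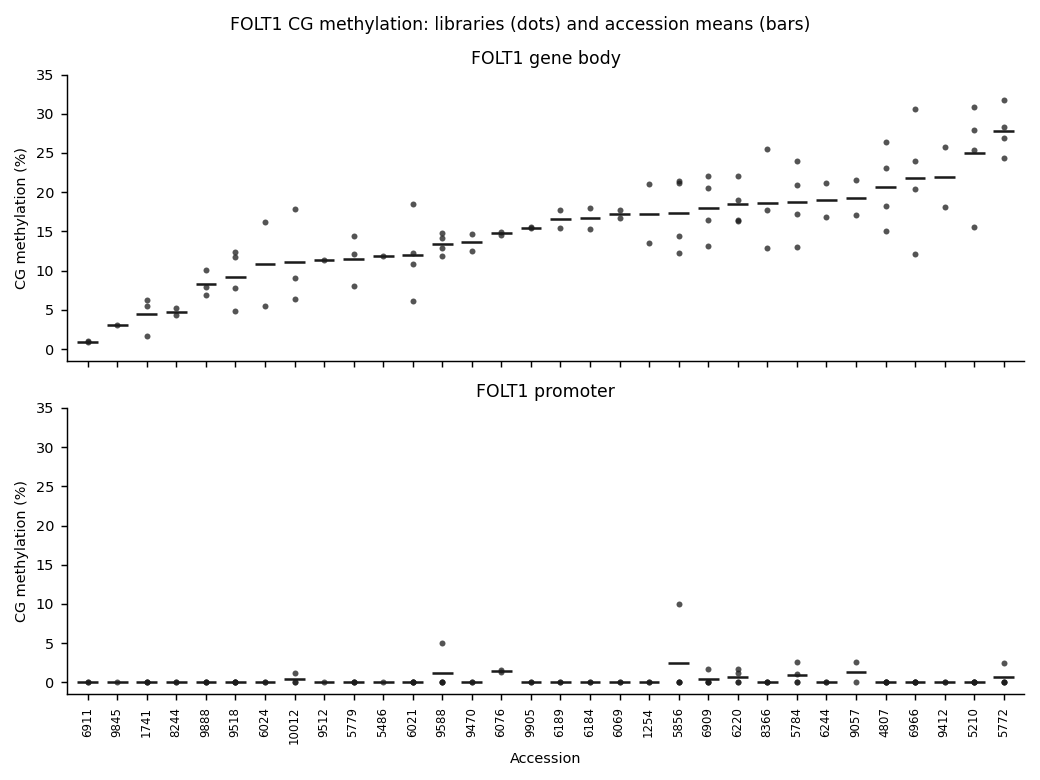
CG methylation of FOLT1 in percent for the gene body (top) and the promoter (bottom), with a dot for each library and a bar for each accession mean. Accessions are ordered by gene-body level, which runs from 0.948% in 6911 to 27.8% in 5772, while the promoter means stay at or below 2.5%.

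No growth round effect was called at the 3 genes, which does not show that rounds had none. The round term, fitted after the accession, was called in 0 of 18 measures at an adjusted p under 0.05 (limma-moderated F-test), and 0 of 18 had an unadjusted p under 0.05. The lowest unadjusted p was 0.0641 in the same test, for FOLT1 gene-body CHG. Rounds made up between 0.264% and 13.2% of the variance within accessions. Over all loci it was called in 0% of gene bodies and promoters in every context except gene-body CHG, where 1 locus, 0.00212%, was called. On the arcsine square root scale it was likewise called in 0 of the 18 measures.

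High CHG like that of HISN6B in 6909 was not seen in the gene bodies of 9 other genes listed for histidine biosynthesis. The list includes VTC4, and whether it holds every step of the pathway, or only enzymes of it, was not checked. Of 9 genes in that list, 9 were called for the accession term in gene-body CG (60.4% of all loci), 0 in CHG (21% of all loci) and 0 in CHH (14.8%). With 9 genes, such counts do not set the list apart from all loci. The median level of the 9 was 16.9% in gene-body CG, and the highest accession mean in CHG was 3.19%. In promoters 1 of 9 was called, in CHH (11.3% of all loci). This was ATP-PRT1, the ATP phosphoribosyltransferase of the first step, with 32.4% in 6909 and a median of 0% (adjusted p = 0.00871, limma). Of 16 genes of folate synthesis and transport, 15 were called in gene-body CG (60.4% of all loci), 3 in CHG (21%) and 1 in CHH (14.8%), so the CHG count is near the share of all loci. The CHG calls were AT1G69190, with 19.2% in 6966 and a median of 0.449% (adjusted p = 3.2e-18, limma), AT2G32040, a likely folate transporter with at most 3.72%, and THY-1, which joins dihydrofolate reductase and thymidylate synthase, with at most 3.31%. The gene-body CHH call was FOLB1, with at most 2.39%. In promoters of this list, 2 of 16 were called in CG (27.8% of all loci), 0 of 15 in CHG (16.1%) and 2 of 16 in CHH (11.3%). With a list of this size, such counts do not set its promoters apart from all loci. The CHH calls were FOLB1 and FOLB2, dihydroneopterin aldolases, with at most 11.2% in 5210 and 13% in 6911. The CG calls were AT2G32040 and FOLB1. At the FOLB1 promoter 5210 stood at 67.8% in CG and the median was 0%.

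Genes with a similar profile of gene-body CG were found by Pearson's r over accession means. For HISN6A these were HR4 (r = 0.867, n = 28 accessions), AT1G43666 (r = 0.866, n = 31) and AT3G13857 (r = 0.853, n = 30), among 14493 genes. HR4 and AT1G43666 also had their highest level in 10012, at 58.0% and 86.7%. AT3G13857 stood at 33.3% in 10012, level with its highest mean, that of 5779. The r without 10012 was not computed. For HISN6B the highest r was 0.664, with AT1G70190 on the same chromosome (n = 31 accessions), followed by AT3G25719 and AT2G30730 at 0.648 and 0.638. For FOLT1 they were AT5G14390 (r = 0.672, n = 32), AT3G61560 (r = 0.648, n = 32) and PPOX (r = 0.646, n = 32). These are descriptions across accessions that share libraries and rounds.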

How the data were processed

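Leaf DNA was treated with bisulfite and read as 100 bp pairs, per the labels' protocols. The genome build was TAIR10, per the submitters' processing notes. Names of the aligner and the caller were not given in the sources used here. Each of the 12 deposited tables holds methylation levels as fractions, computed by the authors for every locus in every library. The depth is unknown, since no counts or coverage come with them.

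The members and gene lists were chosen with earlier results of these data known. Columns were matched to samples by accession and replicate, and 0 columns of per-sample values were left unused. Values with CHH of exactly 1 were treated as missing in all contexts (15.9% of the values of Araport11 gene bodies, and 98.5% of those were at 1 in the other contexts too), and CHG of exactly 1 as missing in CHG. Loci needed a value in at least 50% of the libraries. The accession term was a one-way F-test on the fractions over 88 libraries, the 6909 and 6911 contrasts came from that fit, and the growth round was tested after the accession. Variances were moderated with limma 3.58.1 in R 4.3.3, and p-values were adjusted over all loci of a region and context. Accessions with 1 library added nothing to the replicate variance. Within-accession differences used sign-flip permutation with 100000 resamples, adjusted over 6 tests. Levels counted as high were 50% in CG, 10% in CHG and 5% in CHH. The genes named were the 3 members, list genes called in CHG or CHH, loci within 5 kb, the study's loci over a member and the 3 genes of highest r. Gene names came from a RefSeq table. Replicate numbers pair libraries by growth round, per the series' design text. Deviations from accession means correlated at 0.00159 on average between libraries of the same round and at -0.00051 between rounds (24123 genes, 85 libraries). The tests were checked on simulated data with normal noise. That check does not cover the many values at the lower and upper bound seen at these genes. Alternatives were other readings of values of 1, other filters, an arcsine scale, a variance trend, the round as a block, and libraries or accessions left out. Chosen after seeing the data were leaving out 10012 or replicate 1 of 5779, keeping CHG of 1, and leaving out CG of 1 where CHG is 1 or where the containing locus is at 0. Files were read with the data.table package of version 1.17.8, and values, permutations and plots were made in Python 3.11.15 (pandas 2.3.3, NumPy 2.4.6, matplotlib 3.10.9).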

Additional observations from a re-analysis of the deposited data

Results flagged for a closer look

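Among accessions with 4 values, 88 sets of replicates of 9 measures were examined for a replicate far from the other 3 (gap over range above Dixon's critical value for 4 samples), and 12 were marked. Chance marks about 1 set in 20. In 11 of the 12 the other 3 replicates were equal, at 0% or at 100%, where any departure meets the criterion.

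At HISN6B, gene-body CG was 50% in 6966 replicate 2 and 94.4% in 5210 replicate 3, beside 100% in the other libraries of each. In 6966 the longer locus that contains it was at 87.5% in replicate 2 and lowest in replicate 4, at 66.7%. Gene-body CG was 25% in 6021 replicate 1 and 33.3% in 9518 replicate 2, beside 0% in the others. Promoter CG was 61.5% in 5210 replicate 4, against 90% to 92.9% in the others. It was 100% in 5856 replicate 3, where the longer locus that contains it was at 0%, and 7.69% in 6220 replicate 3, each beside 0% in the others. Gene-body CHH was 2.22% in 5856 replicate 1 beside 0%.

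At HISN6A, gene-body CG was 3.64% in 5856 replicate 1, 6.98% in 6021 replicate 4 and 3.23% in 6220 replicate 3, and promoter CG was 2.86% in 9518 replicate 4, each beside 0% in the other libraries. Why these libraries differ was not tested.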

How the results depend on the processing

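The 6 differences between HISN6A and HISN6B kept their direction under all alternatives run, and the call was kept in 92 alternative values and lost in 4. With values as deposited, gene-body CHH gave -7.57 (adjusted p = 0.207, permutation test) and promoter CHH -1.16 (0.604). With every CG of 100% missing, promoter CG gave -11.2 (0.165). Leaving out replicates 1 to 4 in turn moved the gene-body difference from -39.8 to -33.8 in CG, from -17.3 to -13.2 in CHG and from -2.77 to -1.44 in CHH, and the promoter difference from -29.1 to -20.3 in CG, from -15.3 to -12.3 in CHG and from -3.20 to -2.49 in CHH. With the replicate block these differences were -37.6, -15.3 and -2.26 in the gene body and -25.0, -14.4 and -2.94 in the promoter. Apart from HISN6A promoter CHG (adjusted p = 0.0523, limma), FOLT1 promoter CHH, which it brought to 0.0497 from 0.0535, and HISN6B gene-body CG in 6911 (0.0515), the block changed no other call.

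The 10 measures called for the accession were 9 to 10 without any of the replicates, and the 5 called for 6909 were 5 to 6. With values as deposited, the accession term of HISN6B promoter CHH lost its call (adjusted p = 0.461, limma). The 3 called for 6911 were 5 with values as deposited, which include regions without data, and 1 to 3 without a replicate. The 6911 difference at the HISN6A promoter in CG turned to -3.14 with CG of 100% missing, and ran from -5.16 to 95.6 without a replicate. The round term stayed at 0 calls. For single measures, 847 alternative values kept call and direction, 15 lost the call, 12 gained one and 2 turned. Over all loci, 26 counts of calls moved by more than 1.5 times and 298 did not. With values as deposited, gene bodies called for the accession rose from 9884 to 18806 in CHG and from 8023 to 21350 in CHH, and those called for 6911 in CG fell from 12021 to 7647 and 7374 without replicates 1 and 2. Unknown depth limits all values, and most of all those of exactly 0% or 100%.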
